A study of Mus musculus with 10 samples.

Results

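Protein phosphatase 2A (PP2A) was followed through the RNA levels of 10 of its subunit genes in 50-day mouse intestinal organoids. The rule that chose them used gene names and no measured value, although it was set with earlier results of these data known. The genes are *Ppp2r1a* and *Ppp2r1b* (scaffold), *Ppp2ca* and *Ppp2cb* (catalytic), and *Ppp2r2a*, *Ppp2r2b*, *Ppp2r3a*, *Ppp2r5a*, *Ppp2r5c* and *Ppp2r5e* (regulatory). They are 10 of the 47069 genes in the deposited count table, and each was matched by its symbol to a single row. All 10 passed the filter on low counts that left 16179 genes for testing.

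PP2A is a serine/threonine phosphatase that opposes many kinases of growth signalling, including AKT. Its core is a dimer of a horseshoe-shaped scaffold (A) subunit and a catalytic (C) subunit, to which a single regulatory (B) subunit is added to choose substrate and location. Scaffold and catalytic subunits are each made by a pair of genes, and the regulatory subunits fall into unrelated families: B55 (*Ppp2r2*), PR72/PR130 (*Ppp2r3*), B56 (*Ppp2r5*) and the striatins.

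The organoids, of strain C57BL/6, carried an *Lgr5-EGFP-CreERT2* allele and floxed *Ppp2r1a* (flox/flox) and were grown in Matrigel with Noggin, EGF and R-spondin-1. In this line, Cre recombinase fused to the oestrogen receptor is made from the *Lgr5* locus, so tamoxifen (TAM) can remove the floxed part of *Ppp2r1a* only in Lgr5+ stem cells and their descendants. 5 groups of 2 libraries each were compared: saline (control), the carcinogen 7,12-dimethylbenz[a]anthracene (DMBA, labelled long), TAM labelled dosage-sensitive and short (TAM short), TAM labelled dosage-sensitive and long (TAM long), and DMBA with TAM (DMBA+TAM). Control and DMBA organoids carried the same floxed alleles without TAM. The library titles differ from these treatment labels: control libraries are titled NS, DMBA NL, TAM short DSS_S, TAM long DSS_L and DMBA+TAM Lgr5. Groups follow the treatment labels, and the sources used here do not spell out the titles. The study's text uses DSS for dextran sulfate sodium when it speaks of colitis and mentions organoids of small intestine and colon, but it ties neither to these libraries, so the treatment behind each group rests on that label alone. What short and long stand for, and whether the 2 libraries of a group came from separate animals or cultures, is not given in the sources used here, so p-values measure only the spread between these libraries, which may be technical.

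The sequences that the design turns on are shown first. The loxP sites of the floxed allele flank exons 5 and 6 of *Ppp2r1a*, on chromosome 17 (GRCm38, plus strand), at chr17:20956705-20956852 and chr17:20956957-20957112. Both exons lie within the coding sequence. In the reference transcript of 15 exons they read, 5′ to 3′, without capitals:
*Ppp2r1a* exon 5: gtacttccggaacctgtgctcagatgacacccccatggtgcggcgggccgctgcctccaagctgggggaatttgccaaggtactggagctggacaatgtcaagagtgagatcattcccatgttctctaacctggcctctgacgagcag
*Ppp2r1a* exon 6: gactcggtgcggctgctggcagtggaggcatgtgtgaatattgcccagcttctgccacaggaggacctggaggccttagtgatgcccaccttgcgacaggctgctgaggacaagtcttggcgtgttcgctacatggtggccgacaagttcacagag
Together they hold 304 bases, which leaves a remainder of 1 after division by 3 and is 12.6% of the listed gene length of 2410 bases. The deposited value is 1 count per gene over all exons, so loss of exons 5 and 6 could not be read from it, and a gene count near control does not show that the allele was intact.

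The ends of the coding sequences of both catalytic genes are shown because the last residue of the C subunit, a leucine, is the site methylated by LCMT1, whose gene is described further on. The last 30 coding bases before the stop codon, with the leucine codon in capitals, read:
*Ppp2ca*: gtcactcgtcgtaccccagactacttcCTG
*Ppp2cb*: gtgacccggcgcaccccagactacttcCTG
They differ at 4 of 30 bases and share the leucine codon. Over the whole coding sequence the catalytic genes were 81.7% identical, with a longest shared run of 25 bases, and the scaffold genes 76.7% identical, with a longest shared run of 23 bases. In the single transcript searched per gene, no 50-base stretch of *Ppp2cb*, *Ppp2r1b*, *Ppp2r2b*, *Ppp2r3a*, *Ppp2r5c* or *Ppp2r5e* occurred in a transcript of another gene. Over all annotated exons, 22.2% of the bases of *Ppp2r1b*, 4.24% of *Ppp2r2b* and 1.02% of *Ppp2r3a* overlap a gene on the opposite strand.

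Libraries were not alike in depth or in cell content. 8 libraries held 8828247 to 10923673 counts, whereas the DMBA+TAM libraries held 1592366 and 1915270. Levels are given as CPM, counts relative to the library total, scaled by edgeR's trimmed mean of M-values (TMM) unless stated. Epithelial markers (10 genes, among them *Epcam* and *Krt8*) summed to 12612 to 19693 CPM in the other 8 libraries and to 27.9 and 22.4 CPM in DMBA+TAM, where *Elf3* and *Cdx2* were each at 0 in 1 library. Fibroblast markers (10 genes) summed to 687 to 2415 CPM in the other 8 libraries and to 32680 and 33502 CPM in DMBA+TAM. Immune cell markers (6 genes) summed to 1032 and 976 CPM in DMBA+TAM and 60.5 to 178 elsewhere, endothelium markers (6 genes) to 611 and 604 against 59.1 to 115, and fat cell markers (5 genes) to 3047 and 1319 against 44.0 to 195. Of the immune markers, 1 was at 0 in each DMBA+TAM library. In DMBA+TAM 4 of them were called higher and 1 lower than control (64.3% of all genes called), and 4 higher and 2 lower than TAM short (63.1%). Small intestine markers (10 genes) summed to 17556 to 27916 CPM in control and TAM short, to 306 to 1021 CPM in DMBA and TAM long, and to 0.527 and 2.20 CPM in DMBA+TAM, where 9 and 7 of them were at 0. Colon markers (6 genes) ran the other way in DMBA and TAM long, at 3359 to 12696 CPM with none at 0, against 504 to 603 CPM in control and TAM short, where 1 to 3 of them were at 0, and 15.3 and 9.67 CPM in DMBA+TAM. Against control, 6 of the 6 were called higher in DMBA and 5 in TAM long, where 47.8% and 46% of all genes were called. Smooth muscle markers (6 genes) summed to 7145 to 12810 CPM in DMBA and TAM long, with 6 of 6 called higher in each, to 1206 to 2275 CPM in control and TAM short, and to 1461 and 1602 CPM in DMBA+TAM. In bulk RNA, fewer cells of a type and less RNA per cell cannot be told apart, and the part of cell content in the subunit values below was not tested.

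The targeted scaffold gene, *Ppp2r1a* (ENSMUSG00000007564, chr17:20945311-20965916), encodes the main A subunit. It stood at 123 and 129 CPM in control, 130.3 and 147 in TAM short, 167 and 152 in DMBA, 169 and 157 in TAM long, and 129 and 133 in DMBA+TAM. DMBA and TAM long thus lay above the 6 other libraries, and the ranges of control, DMBA+TAM and TAM short met or overlapped. Against control, the gene rose by 0.34 on the log2 scale in DMBA (SE 0.11, adjusted p = 0.0291, edgeR's quasi-likelihood test, Benjamini-Hochberg) and by 0.37 in TAM long (SE 0.11, adjusted p = 0.0213). Both calls were lost when either control library was left out (adjusted p = 0.154 and 0.0909 for DMBA, 0.125 and 0.075 for TAM long), and when the first DMBA library (0.15) or the first TAM long library (0.116) was. They were lost as well without the filter on low counts (0.109 and 0.0814). Colon and smooth muscle markers were higher in these same groups, at 3359 CPM or more and 7145 CPM or more in each library, and their part in the rise was not tested. In DMBA+TAM the log2 difference from control was 0.06 (SE 0.11, adjusted p = 0.687).

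That last value depends on how the libraries were scaled. With library size alone *Ppp2r1a* stood at 106 and 107 CPM in control and at 154 and 158 in DMBA+TAM, a rise of 0.55 (SE 0.14, adjusted p = 0.00607). The rises over control in DMBA and TAM long were larger with library size too, at 0.65 (SE 0.13, adjusted p = 0.00311, edgeR) and 0.69 (SE 0.13, adjusted p = 0.00238). Under either scaling no group given TAM showed *Ppp2r1a* called below control. The count covers all exons, so this does not show whether the floxed exons were kept. In DMBA+TAM the epithelial markers summed to 27.9 and 22.4 CPM, against 12612 to 19693 CPM in the other groups. The part of that difference in the *Ppp2r1a* value was not tested. Against TAM long, DMBA+TAM was lower by TMM (log2 difference -0.31, SE 0.11, adjusted p = 0.0403) but not by library size (-0.14, adjusted p = 0.414), and the TMM call was lost without any 1 of the 4 libraries.

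*Ppp2r1b* (ENSMUSG00000032058, chr9:50845301-50894229), the second scaffold gene and usually the less abundant, had the highest log2 difference of the 10 genes between DMBA+TAM and control under both scalings. It stood at 26.4 and 22.4 CPM in control, 30.2 and 32.0 in TAM short, 33.0 and 34.2 in DMBA, 27.7 and 37.1 in TAM long, and 62.7 and 50.6 in DMBA+TAM. Both DMBA+TAM libraries lay above the 8 others. The gene rose 2.31-fold against control (log2 1.21, SE 0.18, adjusted p = 0.000218, edgeR) with TMM and 3.25-fold with library size (log2 1.70, SE 0.19, adjusted p = 2.93e-05).

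The rise of *Ppp2r1b* in DMBA+TAM was also called against every other group under both scalings. With TMM the log2 difference was 0.75 from DMBA (SE 0.18, adjusted p = 0.00519), 0.80 from TAM long (SE 0.18, adjusted p = 0.00344) and 0.86 from TAM short (SE 0.18, adjusted p = 0.00197). Leaving out any 1 library of those comparisons, or using DESeq2, did not end these calls. In DMBA, *Ppp2r1b* was 0.46 above control (SE 0.17, adjusted p = 0.0485), a call that was lost when any 1 of the 4 libraries was left out.

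Of the exon bases of *Ppp2r1b*, 22.2% overlap exons of *Sik2*, a kinase gene on the opposite strand, and whether the counting used strand is not given in the sources used here. *Sik2* held 69 and 42 counts in DMBA+TAM, against 119 and 115 for *Ppp2r1b* there, and was itself higher than control (log2 2.02, SE 0.31, adjusted p = 0.000279). Without strand, reads of both genes in the shared stretch cannot be told apart.

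**Figure D1:**
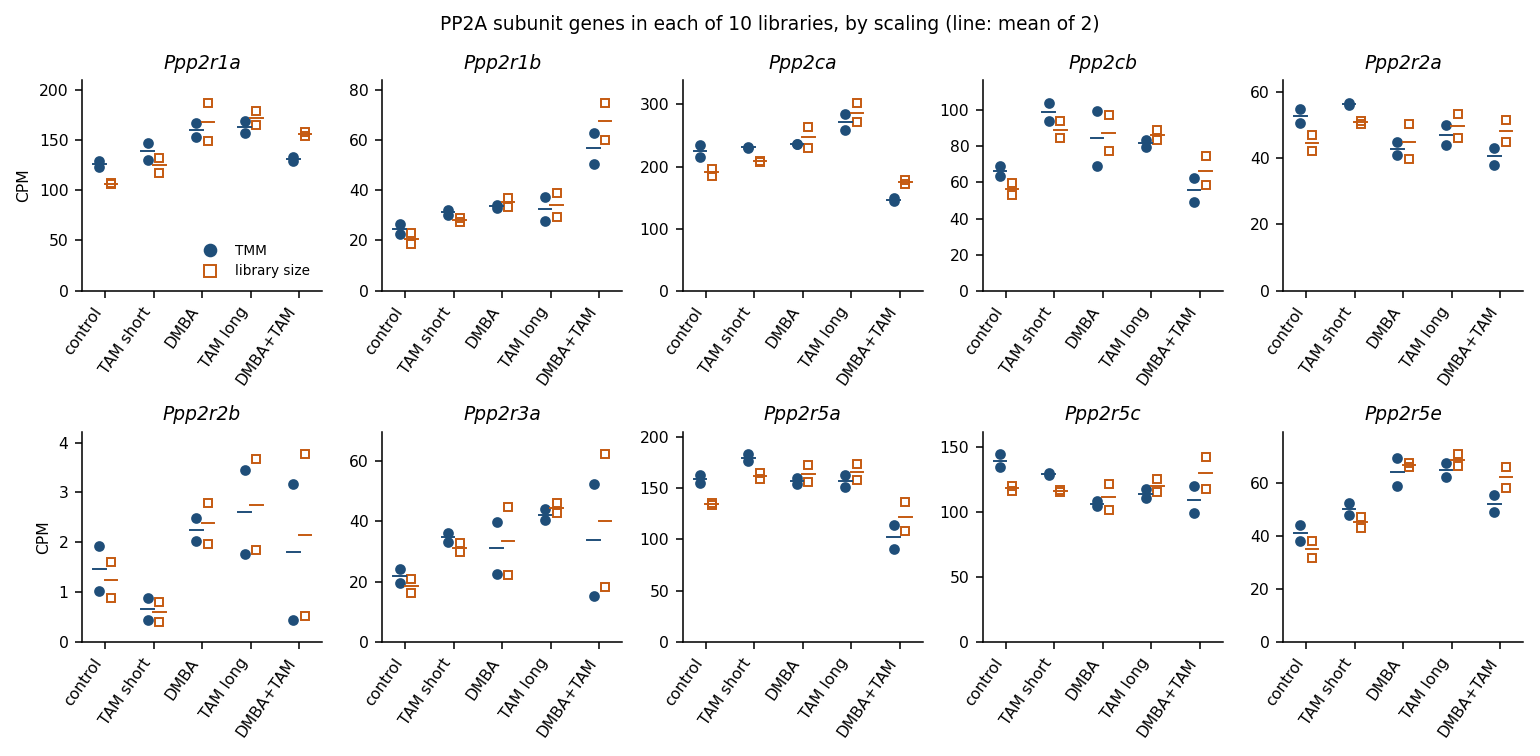
Each panel plots 1 subunit gene in CPM (linear axis from 0) in the 10 libraries, with filled circles for TMM scaling, open squares for library size scaling, and short lines for the mean of the 2 libraries of a group. *Ppp2r1b* is highest in both DMBA+TAM libraries under either scaling (62.7 and 50.6 CPM with TMM), *Ppp2ca* and *Ppp2r5a* are lowest there with TMM, and the DMBA+TAM libraries stand on either side of all others in *Ppp2r3a* with TMM (15.3 and 52.3 CPM).

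The catalytic genes did not follow *Ppp2r1b*. *Ppp2ca* (ENSMUSG00000020349, chr11:52098681-52127778), the more highly counted of the pair, stood at 215 and 235 CPM in control, 232 and 230.2 in TAM short, 236 and 236 in DMBA, 285 and 259 in TAM long, and 149 and 144 in DMBA+TAM. Both DMBA+TAM libraries lay below the 8 others and both TAM long libraries above them. Against control the gene fell by 0.62 in DMBA+TAM with TMM (SE 0.11, adjusted p = 0.000784, edgeR), but with library size the difference was -0.13 (SE 0.12, adjusted p = 0.394).

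Compared with DMBA and TAM long, the decrease of *Ppp2ca* in DMBA+TAM held under both scalings. It fell by 0.69 against DMBA with TMM (SE 0.11, adjusted p = 0.000547) and by 0.50 with library size (SE 0.12, adjusted p = 0.00632). Against TAM long the decreases were 0.89 (adjusted p = 8.94e-05) and 0.72 (adjusted p = 0.00073). Against TAM short the gene fell by 0.66 with TMM (adjusted p = 0.000554), while the library size difference of -0.25 was not called (adjusted p = 0.0978). In the annotation, 41.3% of the exon bases of *Ppp2ca* overlap other genes, nearly all of them in the non-coding RNA 9430098F02Rik on the opposite strand. No gene of that symbol was among those counted, so its own level could not be set beside that of *Ppp2ca*. Whether the counting used strand is not given in the sources used here, so part of the *Ppp2ca* count could not be assigned with certainty.

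*Ppp2cb* (ENSMUSG00000009630, chr8:33599621-33619794) stood at 69.4 and 63.5 CPM in control, 104 and 93.8 in TAM short, 69.3 and 99.8 in DMBA, 83.8 and 79.8 in TAM long, and 62.7 and 49.2 in DMBA+TAM. The DMBA+TAM libraries were lowest with TMM, the DMBA libraries differed widely from each other, and control lay just above DMBA+TAM and met the lower DMBA library. Against control the DMBA+TAM difference was -0.25 with TMM (SE 0.19, adjusted p = 0.265) and 0.24 with library size (SE 0.17, adjusted p = 0.235), so even its sign followed the scaling. *Ppp2cb* was called lower in DMBA+TAM than in TAM short under both scalings, by 0.83 with TMM (SE 0.19, adjusted p = 0.00327) and by 0.43 with library size (SE 0.16, adjusted p = 0.0461). Against DMBA the difference was -0.60 with TMM (adjusted p = 0.0211) and -0.40 with library size (adjusted p = 0.0663), and against TAM long -0.55 (adjusted p = 0.0296) and -0.38 (adjusted p = 0.0773), so both calls were lost with library size.

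Among the regulatory genes, the B55 gene *Ppp2r2a* (ENSMUSG00000022052, chr14:67014057-67072471), whose product directs PP2A to cell cycle and cytoskeletal substrates, ranged from 37.8 to 56.7 CPM. It stood at 54.7 and 50.5 CPM in control, 56.7 and 56.0 in TAM short, 44.8 and 40.9 in DMBA, 50.1 and 43.9 in TAM long, and 43.2 and 37.8 in DMBA+TAM. Control and TAM short lay above the 6 other libraries. The difference of DMBA+TAM from control was -0.38 with TMM (SE 0.13, adjusted p = 0.0295, edgeR) and 0.11 with library size (SE 0.16, adjusted p = 0.581). The TMM call was lost with size factors by relative log expression (RLE, adjusted p = 0.0606), with DESeq2 (adjusted p = 0.147), and without the first control (0.112) or the second DMBA+TAM library (0.141).

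*Ppp2r2b* (ENSMUSG00000024500, chromosome 18), a B55 gene best known from neurons, was close to the detection limit. Its counts were 9 and 16 in control, 4 and 7 in TAM short, 28 and 18 in DMBA, 40 and 18 in TAM long, and 6 and 1 in DMBA+TAM. No comparison called it, and the difference of DMBA+TAM from control was 0.22 with an SE of 0.83 (adjusted p = 0.833). That difference turned to well below 0 without the first DMBA+TAM library, as given in the section on processing. At the depth of the DMBA+TAM libraries, 3 counts correspond to 1.58 and 1.32 CPM, so the level of *Ppp2r2b* there, at 6 and 1 counts, is known only roughly. Enteric neuron markers (9 genes) summed to 16.7 to 37.5 CPM in control and TAM short, at least 72.0 CPM in each DMBA and TAM long library, and 34.8 and 31.2 CPM in DMBA+TAM.

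*Ppp2r3a* (ENSMUSG00000043154, chr9:101105084-101251795) encodes the calcium-binding PR72 and PR130 subunits, PR72 being known from heart and skeletal muscle. It stood at 24.3 and 19.5 CPM in control, 36.2 and 33.0 in TAM short, 39.8 and 22.6 in DMBA, 40.3 and 43.9 in TAM long, and 15.3 and 52.3 in DMBA+TAM. The DMBA+TAM libraries held both the lowest and the highest of the 10 values. Against control the pooled difference was 0.65 (SE 0.44, adjusted p = 0.216), but it was 1.23 without the first DMBA+TAM library (adjusted p = 0.0095) and -0.54 without the second (adjusted p = 0.276).

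Skeletal muscle markers (7 genes) separated the same libraries. They summed to 5.27 CPM in the first DMBA+TAM library, where 1 of 7 was at 0, to 7505 CPM in the second, where none was at 0, and to 7.79 to 21.7 CPM in the 8 others. Their part in the *Ppp2r3a* value was not tested.

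The B56 genes went different ways from each other. *Ppp2r5a* (ENSMUSG00000026626, chr1:191351975-191403272) encodes B56 alpha, which directs PP2A to MYC among other substrates. It stood at 154 and 163 CPM in control, 176 and 183 in TAM short, 154 and 159.6 in DMBA, 163 and 151 in TAM long, and 114 and 91.0 in DMBA+TAM. Both DMBA+TAM libraries lay below the 8 others. The gene fell by 0.63 against control with TMM (SE 0.13, adjusted p = 0.00166, edgeR), while with library size the difference was -0.14 (SE 0.14, adjusted p = 0.393).

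Against the 3 other groups the decrease of *Ppp2r5a* in DMBA+TAM was called under both scalings. With TMM it fell by 0.61 against DMBA (adjusted p = 0.00257), by 0.61 against TAM long (adjusted p = 0.00249) and by 0.81 against TAM short (adjusted p = 0.00035). With library size the decreases were 0.43 (adjusted p = 0.0232), 0.44 (adjusted p = 0.0198) and 0.41 (adjusted p = 0.0249). Of its 50-base stretches 11.4% also occur in other genes, 8.16% in Gm13142.

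*Ppp2r5c* (ENSMUSG00000017843, chr12:110485739-110583061) encodes B56 gamma, which takes part in dephosphorylating p53. It stood at 135 and 145 CPM in control, 130.0 and 129 in TAM short, 108 and 105 in DMBA, 118 and 111 in TAM long, and 99.0 and 120.0 in DMBA+TAM. Control and TAM short lay above the 6 other libraries. With TMM the gene fell by 0.39 in DMBA (SE 0.12, adjusted p = 0.02) and by 0.35 in DMBA+TAM (SE 0.12, adjusted p = 0.0276) against control. With library size these differences were -0.08 (adjusted p = 0.63) and 0.14 (adjusted p = 0.383). The DMBA+TAM call was lost with RLE factors too (adjusted p = 0.067). The TMM calls were also lost without the second control library (adjusted p = 0.111 in DMBA and 0.0994 in DMBA+TAM), without the second DMBA library (0.0536) and without the first DMBA+TAM library (0.136).

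*Ppp2r5e* (ENSMUSG00000021051, chr12:75450883-75596200), which encodes B56 epsilon, ran the opposite way. It stood at 44.0 and 38.1 CPM in control, 47.7 and 52.3 in TAM short, 58.7 and 69.0 in DMBA, 62.1 and 67.5 in TAM long, and 55.3 and 48.8 in DMBA+TAM. DMBA and TAM long lay above the 6 other libraries and control below the 8 others. The gene rose by 0.64 in DMBA (SE 0.13, adjusted p = 0.00342) and by 0.66 in TAM long (SE 0.13, adjusted p = 0.00295) with TMM, and by 0.93 (adjusted p = 0.000334) and 0.97 (adjusted p = 0.000267) with library size. Without the second control library the TMM call in DMBA was lost (adjusted p = 0.0501). These are the groups in which the colon markers stood at 3359 to 12696 CPM and the smooth muscle markers at 7145 to 12810 CPM, and the part of either in the *Ppp2r5e* rise was not tested. In DMBA+TAM the difference from control was 0.34 with TMM (SE 0.14, adjusted p = 0.0615) and 0.83 with library size (SE 0.14, adjusted p = 0.000539).

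Counted over the 10 genes, DMBA+TAM against control gave 1 higher (*Ppp2r1b*) and 4 lower (*Ppp2ca*, *Ppp2r2a*, *Ppp2r5a*, *Ppp2r5c*) with TMM, where 64.3% of all genes tested were called, 29% higher and 35.3% lower. With library size it gave 3 higher (*Ppp2r1a*, *Ppp2r1b*, *Ppp2r5e*) and 0 lower, where 61.8% of all genes were called, 38.5% higher and 23.3% lower. At an unadjusted p under 0.05 there were 6 genes with TMM and 4 with library size. An adjusted p is never below the unadjusted p, so at least 64.3% and 61.8% of all genes passed that threshold too. The exact shares of all genes at an unadjusted p are not given here or for the later comparisons. RLE factors gave 2 higher (*Ppp2r1b*, *Ppp2r5e*) and 2 lower (*Ppp2ca*, *Ppp2r5a*), where 63.7% of all genes were called, and DESeq2 gave 1 higher and 2 lower, where 60% were. *Ppp2r1b* was the gene called in the same direction with TMM and with library size. The share of subunit genes called, 5 of 10 with TMM and 3 of 10 with library size, was not above that of all genes. Between these scalings 3 of the 10 changed sign (*Ppp2cb*, *Ppp2r2a*, *Ppp2r5c*) and 7 did not, and *Ppp2ca* and *Ppp2r5a* stayed below control but lost the call.

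The scalings differ because the TMM factors ran from 0.832 in a control library to 1.19 in a DMBA+TAM library. Replacing TMM with library size moved the median log2 difference of all genes between DMBA+TAM and control from -0.17 to 0.31, a shift of 0.48, and the median of the 10 subunit genes from -0.10 to 0.39. Relative to that median, 5 of the 10 genes lay above and 5 below under both scalings. The shift was 0.30 for DMBA against control, 0.32 for TAM long against control, 0.39 for DMBA+TAM against TAM short, 0.18 and 0.16 for DMBA+TAM against DMBA and TAM long, 0.08 for TAM short against control and 0.01 for TAM long against DMBA. Size factors by DESeq2's method (RLE) moved the median by at most 0.07.

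**Figure D2:**
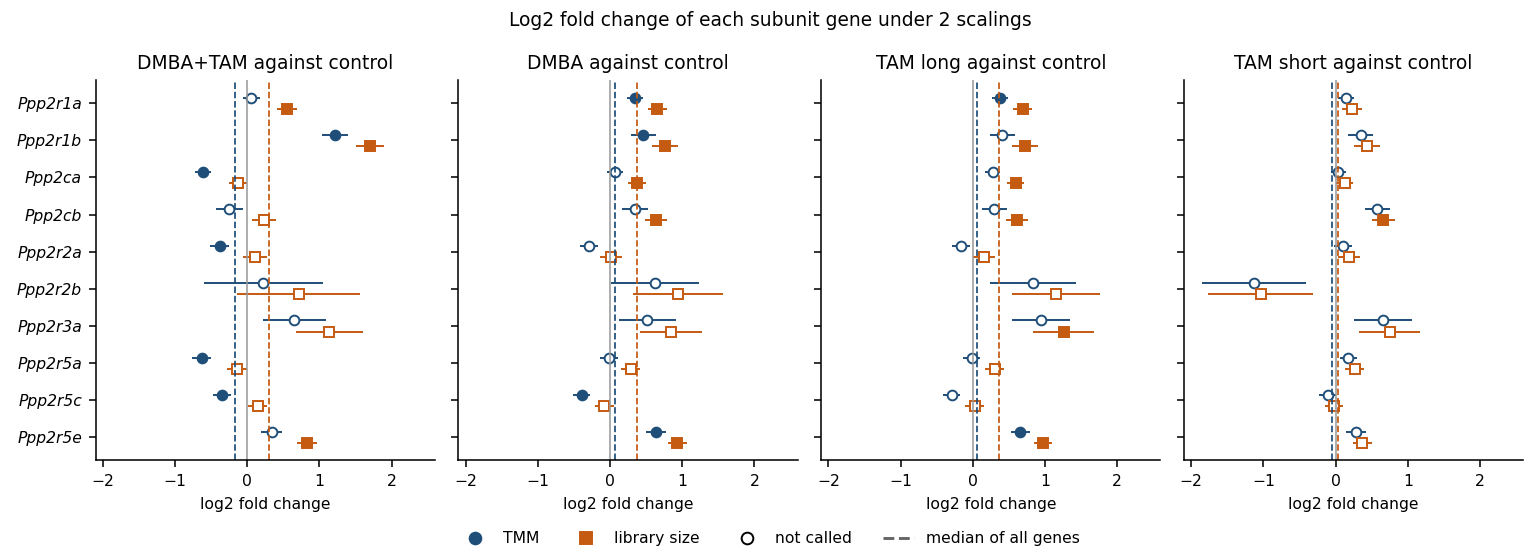
Each panel plots, for 1 group against control, the log2 fold change of the 10 subunit genes with TMM (blue circles) and with library size (orange squares). Bars are standard errors, filled symbols have an adjusted p under 0.05, and dashed lines are the medians of all genes tested. In DMBA+TAM the dashed lines lie at -0.17 and 0.31 and the genes move with them, so that *Ppp2ca* and *Ppp2r5a* are called lower with TMM alone and *Ppp2r1a* and *Ppp2r5e* higher with library size alone.

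The remaining comparisons with DMBA+TAM moved less with the scaling. Against DMBA, 1 gene was higher and 3 lower with TMM (55.1% of all genes called) and 1 higher and 2 lower with library size (53.5%). Against TAM long the counts were 1 and 4 with TMM (55.2%) and 1 and 2 with library size (53.1%). Against TAM short they were 1 and 4 with TMM (63.1%) and 2 and 2 with library size (60.4%). *Ppp2r1b* higher and *Ppp2r5a* lower recurred in these 3 comparisons under both scalings; the comparisons share the DMBA+TAM libraries.

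When DMBA and TAM long were compared with control, more subunit genes were called higher than lower. The median log2 difference of all genes was also above 0 there, at 0.07 and 0.05 with TMM and 0.37 and 0.37 with library size. Shares of all genes called in these comparisons are for either direction. Whether all genes also had more higher than lower calls is not given here, so the direction of the subunit calls cannot be set beside it. DMBA against control gave 3 higher (*Ppp2r1a*, *Ppp2r1b*, *Ppp2r5e*) and 1 lower (*Ppp2r5c*) with TMM (47.8% of all genes called), and 5 higher and 0 lower with library size (48.3%). Each of these TMM calls was lost without the second control library, as given above gene by gene. How the share of all genes called changed in that fit is not given here. TAM long against control gave 2 higher (*Ppp2r1a*, *Ppp2r5e*) and 0 lower with TMM (46% of all genes called), and 6 higher with library size (47.3%). With TMM, 6 of the 10 were at an unadjusted p under 0.05, a threshold that at least 46% of all genes passed. Both comparisons share the control libraries.

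TAM short against control called 0 of the 10 genes with TMM, where 14.3% of all genes were called, with 1 gene at an unadjusted p under 0.05. A fit of these 2 groups alone called 4 genes, where it called 31% of all genes, and leaving out the filter on low counts called 2, where it called 12.5%. The gene at an unadjusted p under 0.05 was *Ppp2cb*, 0.58 above control (SE 0.17, adjusted p = 0.0553), with both TAM short libraries above both controls. It was the 1 gene called with library size (0.66, adjusted p = 0.0202; 13.4% of all genes called) and with DESeq2 (0.57, adjusted p = 0.0329). TAM long against DMBA called 0 genes by every tool and scaling tried (2.7% of all genes called with TMM and 1.92% with library size), with 0 at an unadjusted p under 0.05.

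Ratios between subunit genes of the same library do not depend on the scaling. Counts were divided by the listed gene length for this, and sums of unlike genes depend on the length used. The share of *Ppp2r1b* in scaffold RNA was 22.2% ± 2.97 (SD, n = 2) for DMBA+TAM, 11.4% ± 1.54 for control, 12.9% ± 0.509 for TAM short, 12.2% ± 0.962 for DMBA and 11.6% ± 2.61 for TAM long. The DMBA+TAM libraries stood at 24.3% and 20.1%, and the 8 others between 9.80% and 13.5%. With the gene lengths implied by the deposited FPKM (fragments per kilobase of transcript, scaled to depth) the shares were 19.2% and 15.7% in DMBA+TAM and 7.43% to 10.3% in the others. An exact permutation test of 2 against 2 libraries cannot give a p below 0.333, and no other test was run on these ratios, which are given as values with their spread.

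The balance of catalytic to scaffold RNA was also shifted. The log2 ratio of the 2 sums was -0.450 ± 0.134 for DMBA+TAM, 0.208 ± 0.0325 for control, 0.394 ± 0.185 for TAM short, 0.0683 ± 0.291 for DMBA and 0.119 ± 0.0414 for TAM long (SD, n = 2). Both DMBA+TAM libraries, at -0.355 and -0.545, lay below the lowest of the 8 others, at -0.137. With the FPKM-implied lengths the ratio was -1.39 for DMBA+TAM, -0.716 for control, -0.606 for TAM short, -0.892 for DMBA and -0.809 for TAM long, so its sign in 4 groups depends on the length, and the DMBA+TAM libraries remained the lowest. The share of *Ppp2cb* in catalytic RNA overlapped between groups, with 62.1% and 57.0% in DMBA+TAM and 51.2% to 63.6% elsewhere. With the FPKM-implied lengths it was 46.9% and 41.8% in DMBA+TAM and 36.2% to 48.5% elsewhere, so which catalytic gene held the larger share depends on the length.

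Regulatory RNA relative to scaffold RNA fell into 3 levels that did not overlap. The log2 ratio of the 6 regulatory genes to the scaffold pair was 0.684 to 0.820 in the control and TAM short libraries, 0.345 to 0.459 in DMBA and TAM long, and 0.206 and 0.242 in DMBA+TAM. With the FPKM-implied lengths it was 0.0801 to 0.214, -0.271 to -0.174, and -0.447 and -0.455, so the levels again did not overlap but the sign in DMBA, TAM long and DMBA+TAM depends on the length. Within the regulatory genes, *Ppp2r5e* took 7.59% to 9.69% in control and TAM short and 12.1% to 14.6% in the other 3 groups. *Ppp2r5a* took 39.6% and 31.5% in DMBA+TAM and 42.2% to 46.1% elsewhere. The log2 ratio of *Ppp2r5a* to *Ppp2r5e* was 1.41 ± 0.105 for DMBA+TAM, 1.72 ± 0.159 for TAM long, 1.74 ± 0.129 for DMBA, 2.29 ± 0.0563 for TAM short and 2.40 ± 0.202 for control. With the FPKM-implied lengths the *Ppp2r5e* share was 4.49% to 5.57% in control and TAM short and 7.06% to 8.66% in the others, and the log2 ratio was 2.71 for DMBA+TAM, 3.02 for TAM long, 3.04 for DMBA, 3.59 for TAM short and 3.70 for control. By their sum, the small intestine markers separated control and TAM short from the other groups in the same way. Gene by gene, 2 of the 10 markers were called higher and 5 lower in TAM short than in control with TMM (14.3% of all genes called). The part of these markers in the ratios was not tested.

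**Figure D3:**
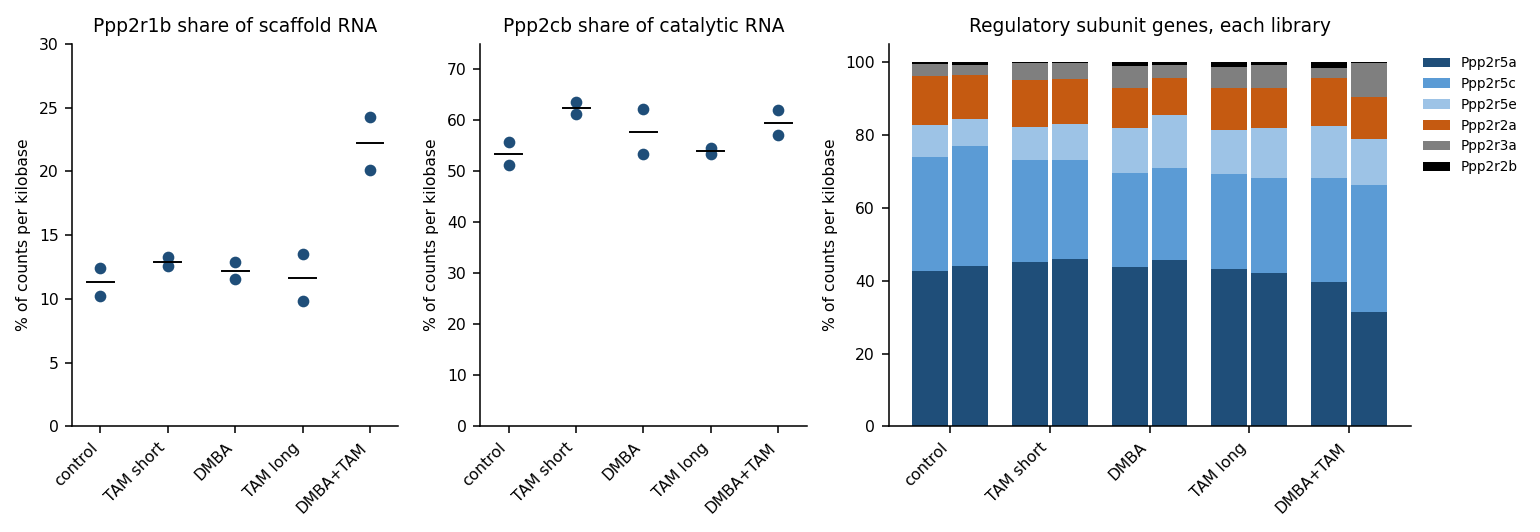
The left and middle panels plot the share of *Ppp2r1b* in the 2 scaffold genes and of *Ppp2cb* in the 2 catalytic genes, as a percentage of counts per kilobase of listed length, with a point per library and a line at the group mean. The right panel stacks the shares of the 6 regulatory genes in each library. The *Ppp2r1b* share stands at 24.3% and 20.1% in DMBA+TAM and at 9.80% to 13.5% elsewhere, the *Ppp2cb* shares overlap, and the band of *Ppp2r5e* widens in DMBA, TAM long and DMBA+TAM.

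The summed level of the 10 genes shows the scaling most simply. With TMM they summed to 730.5 ± 4.66 CPM in DMBA+TAM (SD, n = 2), which was the lowest group, 857 ± 15.1 for control, 917 ± 5.18 for DMBA, 950.5 ± 9.01 for TAM short and 976 ± 34.6 for TAM long. With library size the lowest was control at 726 ± 4.58, followed by TAM short at 856 ± 6.73, DMBA+TAM at 869 ± 7.93, DMBA at 960.0 ± 89.1 and TAM long at 1031 ± 47.9.

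Levels between genes were compared per kilobase of listed length. By the median over the 10 libraries, *Ppp2r1a* came first at 58.1 CPM per kilobase, followed by *Ppp2r5a* at 44.3, *Ppp2cb* at 40.9, *Ppp2ca* at 32.9 and *Ppp2r5c* at 28.1. *Ppp2r2a* at 11.8, *Ppp2r5e* at 11.2 and *Ppp2r1b* at 8.91 were lower, then *Ppp2r3a* at 5.10 and *Ppp2r2b* at 0.812. The deposited FPKM of *Ppp2r1a* implied a length of 882 bases rather than 2410. By FPKM *Ppp2ca* passed *Ppp2cb* to rank 3 and *Ppp2r1b* passed *Ppp2r2a* and *Ppp2r5e* to rank 6, while *Ppp2r1a* and *Ppp2r5a* held ranks 1 and 2 of these medians. The order also differed between groups. By listed length the group mean of *Ppp2cb* was above that of *Ppp2r5a* in all groups but control (54.2 against 50.8 CPM per kilobase in TAM short, and 30.6 against 29.0 in DMBA+TAM), with overlapping libraries in each of them, and in the first TAM short library *Ppp2cb* was above *Ppp2r1a* (57.1 against 54.1). In DMBA+TAM *Ppp2r1b*, at 15.5, was above *Ppp2r5e* at 10.8 and *Ppp2r2a* at 10.04, and *Ppp2r5c*, at 25.9, above *Ppp2ca* at 20.6, without overlap of the libraries. Some of these orders turn with the length: by FPKM *Ppp2r5a* was above *Ppp2cb* in every library (94.8 and 75.2 against 40.9 and 32.0 in DMBA+TAM), and in DMBA+TAM *Ppp2ca*, at 46.4 and 44.7, was above *Ppp2r5c* at 28.3 and 34.2. In the first TAM short library *Ppp2r1a* was above *Ppp2cb* by FPKM (133 against 51.4).

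The other genes of PP2A and its relatives, 41 tested in 5 lists, were given for context. In DMBA+TAM against control with TMM the medians of all 5 lists lay between -0.62 and -0.06, beside -0.17 for all genes. With library size they were 0.44 for the other regulatory genes, -0.12 for assembly and methylation, 0.21 for the inhibitors, -0.11 for PP4 and PP6 and -0.12 for STRIPAK, beside 0.31 for all genes, so that of the regulatory genes and that of the inhibitors changed sign. The counts of these lists stand beside 64.3% of all genes called with TMM (29% higher, 35.3% lower) and 61.8% with library size (38.5% higher, 23.3% lower). Of the 9 other regulatory genes, 2 passed the test with TMM, both lower, and with library size 4 were higher and 1 lower. *Ppp2r5d*, which encodes B56 delta, was lower under both. It stood at 119.6 and 111 CPM in control, 79.7 and 89.5 in TAM short, 63.1 and 49.3 in DMBA, 52.1 and 49.3 in TAM long, and 32.1 and 36.1 in DMBA+TAM. The fall from control was 1.76 in DMBA+TAM with TMM (SE 0.15, adjusted p = 5.04e-06) and 1.27 with library size (adjusted p = 0.000263). *Ppp2r3c*, the other gene called with TMM, differed by -0.57 (adjusted p = 0.0292) and by -0.08 with library size (adjusted p = 0.771).

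Of the 5 genes for assembly and methylation, 3 passed with TMM, all lower, and with library size 2 were higher and 1 lower, beside 64.3% and 61.8% of all genes called. *Lcmt1*, whose enzyme methylates the terminal leucine of the catalytic subunit, was the gene that stayed lower. It stood at 54.5 and 63.3 CPM in control, 33.9 and 33.9 in TAM short, 27.2 and 30.2 in DMBA, 30.6 and 28.7 in TAM long, and 17.4 and 22.0 in DMBA+TAM. Every treated library lay below both controls. The fall from control was 1.57 in DMBA+TAM (SE 0.16, adjusted p = 1.46e-05), 1.04 in DMBA (adjusted p = 0.000232), 0.99 in TAM long (adjusted p = 0.000325) and 0.80 in TAM short (adjusted p = 0.00459) with TMM, and was called in all 4 with library size. *Igbp1*, which protects newly made catalytic subunit, differed by -0.76 with TMM (adjusted p = 0.00023) and by -0.27 with library size (adjusted p = 0.0692).

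Of the 7 inhibitor genes, 2 passed with TMM, both lower, and with library size 1 passed, *Anp32a*, at 0.38 (adjusted p = 0.0169), beside 64.3% and 61.8% of all genes called. *Set*, a protein inhibitor of PP2A, differed by -0.54 (adjusted p = 0.00434) and -0.05 (adjusted p = 0.777) with the 2 scalings, and *Arpp19*, an inhibitor of B55-bound PP2A in mitosis, by -0.57 (adjusted p = 0.00128) and -0.08 (adjusted p = 0.598). Of the 9 genes of the related phosphatases PP4 and PP6, 6 passed with TMM and 3 with library size, all lower, beside 35.3% and 23.3% of all genes called lower. *Ppp4r1* fell by 1.08 with TMM (SE 0.11, adjusted p = 1.63e-05) and by 0.59 with library size (adjusted p = 0.00285), and *Ppp6r1* fell by 1.06 (SE 0.15, adjusted p = 0.000172) and by 0.57 (adjusted p = 0.0167).

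Of the 11 genes of the striatin-interacting complex STRIPAK, 3 were higher and 7 lower with TMM, and 3 higher and 2 lower with library size, beside 64.3% and 61.8% of all genes called. *Stk26*, a kinase of that complex, held 8 and 21 counts in control and 18 and 26 in the shallower DMBA+TAM libraries, a rise of 2.62 (SE 0.63, adjusted p = 0.0047). *Strip2* held 8 and 8 counts in control and 13 and 4 in DMBA+TAM, a rise of 2.14 (SE 0.74, adjusted p = 0.0276, edgeR) that rests on few counts. In CPM it stood at 0.903 and 0.962 in control and 6.85 and 1.76 in DMBA+TAM. Elsewhere it stood at 0 and 0.378 in TAM short, 4.46 and 5.94 in DMBA, and 5.16 and 7.16 in TAM long. *Cttnbp2nl*, better counted, held 198 and 176 counts in control and 174 and 192 in DMBA+TAM. Its level was 22.3 and 21.2 CPM in control and 91.7 and 84.4 CPM in DMBA+TAM. Elsewhere it was 26.8 and 30.6 CPM in TAM short, 69.3 and 74.4 in DMBA, and 43.6 and 68.2 in TAM long. *Stk25*, another kinase of the complex and well counted, stood at 182 and 204 CPM in control and at 71.6 and 70.3 in DMBA+TAM. From control to DMBA+TAM it fell by 1.44 with TMM (SE 0.14, adjusted p = 1.03e-05, edgeR) and by 0.95 with library size (adjusted p = 0.000471). In the other groups *Stk25* stood above control, at 299 and 335 CPM in TAM short, 285 and 251 in DMBA, and 303 and 351 in TAM long.

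**Figure D4:**
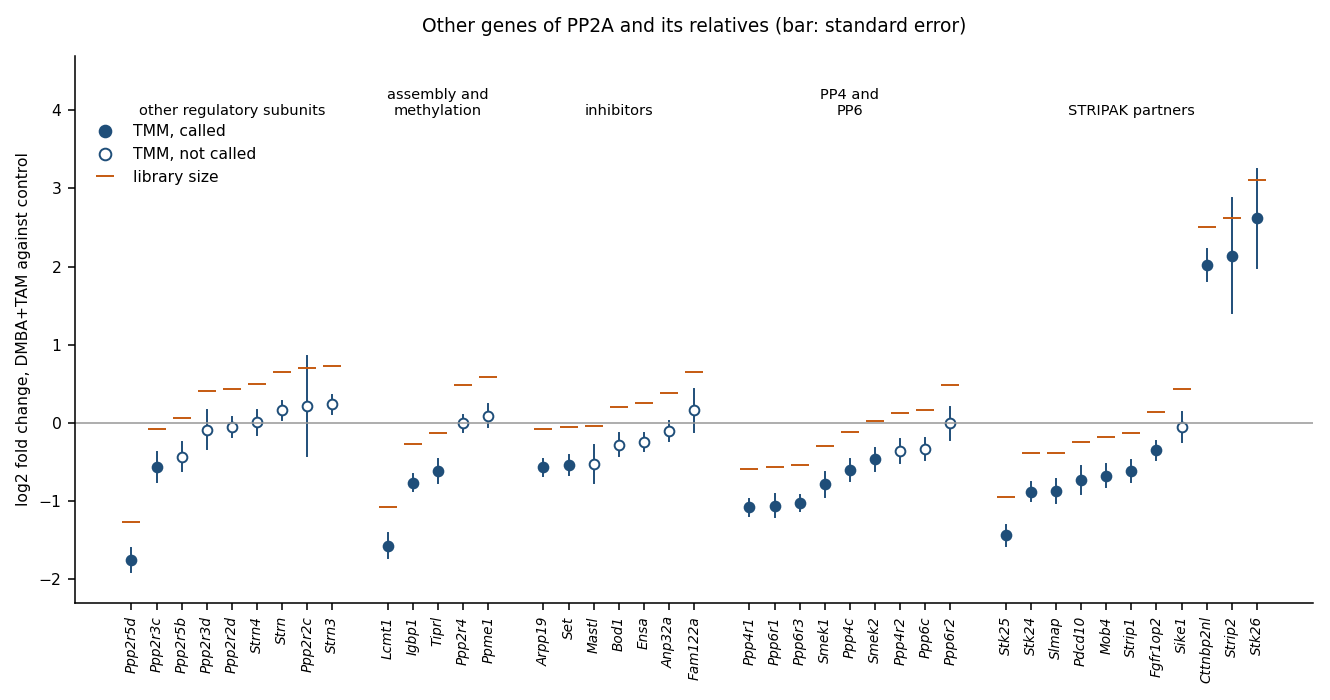
The plot gives the log2 fold change of DMBA+TAM against control for 41 other genes of PP2A and its relatives, grouped by list. Circles are TMM values with standard error bars, filled where the adjusted p was under 0.05, and orange dashes are library size values. *Ppp2r5d*, *Lcmt1*, *Ppp4r1* and *Ppp6r1* stay below 0 under both scalings, many genes near -0.5 move to about 0, and 3 STRIPAK genes lie above 2.

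Across the 10 libraries, the genes whose log2 CPM was most like that of *Ppp2r1a* were *Abca12*, a lipid transporter gene (Pearson r = 0.962), a gene without a symbol (r = 0.961) and *Cdhr1*, a cadherin-family gene (r = 0.957). These were at 0 in the 4 control and DMBA+TAM libraries and were highest in DMBA or TAM long, and the points share group and depth. Among the subunit genes themselves, r ranged from -0.82 between *Ppp2r5c* and *Ppp2r5e* to 0.86 between *Ppp2ca* and *Ppp2r5a* over the same libraries.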

How the data were processed

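Poly(A) RNA of 10 organoid libraries was prepared by the authors with a kit not described as directional (NEBNext Ultra), mapped with TopHat to the mouse genome (GRCm38.p6 in the submitters' processing notes) and counted per gene with HTSeq. The deposited table holds these raw counts and the FPKM that the authors computed from them; the pooled group values, log2 fold changes, p-values and calls of the authors' own comparisons in it were not used. 5 broken lines without counts were left out. FPKM served only for the comparison of levels between genes, as the length it implies differed from the listed length for some genes. The 10 subunit genes and the lists of related genes and markers were chosen with earlier results of these data known.

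Counts were tested with edgeR 4.0.16 (quasi-likelihood F test, filterByExpr, TMM, all 10 libraries and 5 group means in the fit, Benjamini-Hochberg over 16179 genes, threshold 0.05), in 8 comparisons; the script was tested on simulated counts. Named genes were the 10 subunit genes and the 3 genes most correlated with *Ppp2r1a* (log2 CPM with a pseudocount of 0.5). From each list of related genes, the 2 genes with the greatest log2 change in DMBA+TAM against control were named. *Sik2* was named because its exons overlap those of *Ppp2r1b*. *Anp32a*, *Stk25* and *Cttnbp2nl* were named after their values were seen. Alternatives were library size alone, RLE factors, DESeq2 1.42.0, no count filter, a fit of the compared groups alone, a replicate block, each library left out in turn, and the FPKM-implied length, which was chosen after seeing the data. Sequences came from the reference genome of build GRCm38 with its annotation. Replicates differed by more than sampling noise in every group (chi-square per degree of freedom 5.57 to 67.1). With 1592366 to 10923673 counts a library, the 3-count level was 0.258 to 1.58 CPM, which covers counting error only.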

Additional observations from a re-analysis of the deposited data

How the results depend on the processing

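Replacing TMM with library size moved the number of subunit genes called to 3 for DMBA+TAM against control, 3 for DMBA+TAM against TAM long, 6 for TAM long against control and 1 for TAM short against control. DESeq2 called 3, 3 and 1 in the first, second and last of these (60%, 50.8% and 15.9% of all genes). Fitting only the groups compared called 5 in TAM long and 4 in TAM short against control (54.1% and 31% of all genes), and no count filter called 2 in TAM short (12.5%). With 1 library left out, every fit lost calls for DMBA+TAM against TAM long and for DMBA against control. Some fits lost calls for DMBA+TAM against control and DMBA, and for TAM long against control. Some gained a call for DMBA+TAM against TAM short, and none did for TAM short against control or TAM long against DMBA. A group left with 1 library was taken to vary like the others, so no counts are given for these fits.

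Directions against control in DMBA+TAM turned with library size for *Ppp2cb* (0.24), *Ppp2r2a* (0.11) and *Ppp2r5c* (0.14). Without the count filter *Ppp2r1a* turned to -0.014, and *Ppp2r5e* in DMBA+TAM against TAM short to -0.016. With 1 library left out, *Ppp2r1a* ran from -0.0091 (without the first control) to 0.062, *Ppp2r2b* from -1.73 (without the first DMBA+TAM library) to 1.08, *Ppp2r3a* from -0.54 (without the second DMBA+TAM library) to 1.23, *Ppp2ca* in DMBA against control from -0.0052 (without the first control) to 0.12, and *Ppp2r5e* in DMBA+TAM against TAM short from -0.058 (without the first DMBA+TAM library) to 0.12. The cause was not tested.

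The alternatives followed 38 log2 differences: all 10 genes in DMBA+TAM against control and, in the other comparisons, genes called with TMM or library size. Genes called under neither scaling were left out of those comparisons, so the numbers below are not rates over all values. Of the 38, 17 kept direction and side of the threshold with library size, 34 with RLE factors, 31 with DESeq2 and 29 without the filter. Of the 37 that could be fitted with only the groups compared, 28 did. Same-numbered libraries shared only a number: their deviations from the group means correlated with r of -0.04 to 0.26 over 10 pairs of groups. With the replicate block the counts were 5, 4, 4 and 5 for DMBA+TAM against control, DMBA, TAM long and TAM short. They were 3, 2 and 0 for DMBA, TAM long and TAM short against control and 0 for TAM long against DMBA. The share of all genes called with the block is not given here, so these counts cannot be set beside it. With the block, 36 of 38 differences kept their side. The low depth of the DMBA+TAM libraries limits what could be seen for *Ppp2r2b* (6 and 1 counts).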
